A study of Mus musculus with 9 samples.

Results

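The genes described here are 9 enzymes of mitochondrial fatty acid oxidation (Cpt1a, Cpt2, Acadvl, Acadl, Acadm, Hadha, Hadhb, Acaa2 and Eci1) and Plin5, a lipid droplet coat protein. They were chosen by symbol: a row of the deposited table belonged to the set when its gene name was 1 of these 10. All 10 were found among the 23799 genes of the table, and all 10 passed the filter of at least 1 RPKM (reads per kilobase of gene, scaled to a read total per library) in at least 2 of the 9 libraries, as did 12832 genes in all. Plin5 passed only through the 2 libraries in which it was high.

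Mitochondria burn fatty acids in a fixed order of steps. Long-chain fatty acids are first tied to carnitine to cross the mitochondrial membranes. Inside, a repeating cycle of dehydrogenation, hydration, a second dehydrogenation and thiolytic cleavage shortens them to acetyl-CoA, and auxiliary isomerases handle the double bonds of unsaturated chains. Liver, heart and brown fat depend strongly on this pathway, and nuclear receptors of the PPAR family switch on many of its genes.

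RNA was sequenced from 9 libraries of fluorescence-sorted tumour cells from mice. The breast cancer (BC) libraries held GFP-sorted cells labelled 4T1-eGFP derived, at 28 days: primary tumours 1 and 5 and lung metastases 4 and 6. 4T1 is a single mouse mammary carcinoma line. YFP-sorted cells made up the libraries of pancreatic ductal adenocarcinoma (PDAC). Primary tumour 1, liver metastasis 1 and lung metastasis 1 were taken at 25.67 weeks, and primary tumour 5 and liver metastasis 5 at 28.95 weeks. All 5 carried p48-Cre, which drives recombination in the pancreatic lineage, with the alleles p53F/+ and KrasL/+ and the reporter ROSA-LSL-YFP. The label of the 3 libraries of number 1 adds SIRT6F/F, and that of number 5 does not. In this series the SIRT6 label and age cannot be told apart from the library number. No treatment is labelled for any group. Where the libraries of a group are given as a pair of values below, they stand in the order of these numbers, 1 before 5 and 4 before 6.

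Libraries differed in how many genes they listed. Of the 12832 tested genes, between 47.5% (PDAC primary 5) and 83.4% (BC primary 5) reached 1 RPKM. The 3 libraries with the fewest genes above 0 were the PDAC lung metastasis (9530 genes), PDAC primary 5 (10410) and BC lung metastasis 6 (10938), against 20478 in BC primary 5. Haemoglobin genes took 20.1 to 38.9% of the summed RPKM in the PDAC metastases and at most 10.9% elsewhere. The summed RPKM of 10 epithelial tumour cell markers was 2926 to 5673 in the BC libraries, 2090 and 16392 in the PDAC primary pair, 6293 and 263 in the PDAC liver pair and 124 in the PDAC lung library. In that lung library 3 of the 10 reached 1 RPKM: the adhesion molecule gene Epcam (24.3 RPKM, against 25.1 and 20.1 RPKM in the PDAC liver pair) and the keratin genes Krt8 (56.6 RPKM) and Krt18 (42.7 RPKM). Krt19 was at 0.338 RPKM, and the cadherin gene Cdh1 was among 4 listed at 0. Sftpc, the surfactant protein gene of alveolar type 2 cells, was at 34207 RPKM there. It is the only library of its group. A value of exactly 0 is given below as listed at 0.

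Across the 9 libraries the enzyme genes were broadly present, with gaps that fell in particular libraries. In both BC primaries and BC lung metastasis 4, 9 of the 10 genes were at or above 1 RPKM, the exception being Plin5. The count was 8 in BC lung metastasis 6, 9 and 6 in the PDAC primary pair, 9 and 10 in the PDAC liver pair and 5 in the PDAC lung library. Acadl, the long-chain acyl-CoA dehydrogenase, had the highest RPKM of the 10 in 4 libraries (both BC primaries, PDAC primary 5 and the PDAC lung metastasis). Eci1 led in both BC lung metastases and in PDAC primary 1, and Acaa2 led in both PDAC liver metastases. RPKM is a level per gene length, so these orders within a library compare genes on 1 scale. The 10 genes summed to 362 and 268 RPKM in the BC primary pair, 406 and 475 RPKM in the BC lung pair, 334 RPKM in each PDAC primary, 387 and 228 RPKM in the PDAC liver pair and 93.8 RPKM in the PDAC lung library.

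**Figure D1:**
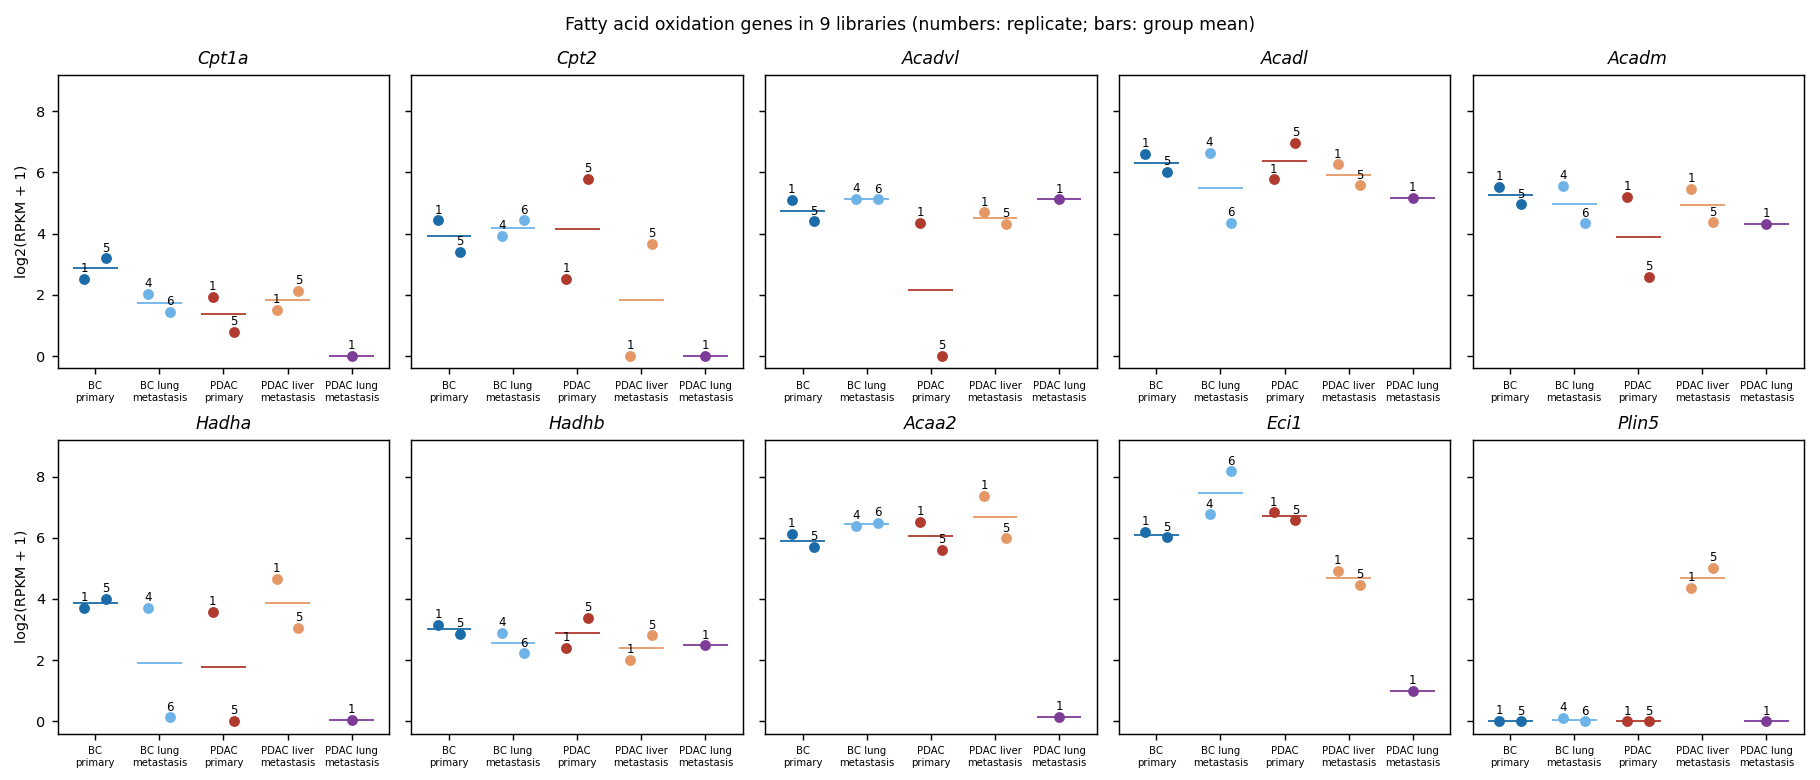
Level of each gene, as log2(RPKM + 1) on the vertical axis, in every library by group on the horizontal axis; each point is a library with its replicate number, and each bar is the group mean. Plin5 stands above 0 clearly in the 2 PDAC liver metastases alone, Eci1 is lowest in the PDAC liver and lung metastases, and Hadha has 3 libraries near 0 while Hadhb has none.

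Differences between groups were tested with limma on log2(RPKM + 1) over all 12832 genes, using 1 spread estimate from the whole set of 9 libraries and Benjamini-Hochberg adjustment. Genes whose adjusted p fell below 0.05 count as called. The first question was whether metastases differed from primary tumours in each model. In BC lung metastases 0 of the 10 genes were called, against 0% of all genes, and 0 had an unadjusted p under 0.05, against 2.07% of all genes. The median difference of the 10 genes was -0.12 and that of all genes -0.29. In PDAC liver metastases limma also called 0 of 10 (0.00779% of all genes), and 2 had an unadjusted p under 0.05 (6.4% of all genes): Plin5, with higher values in the metastases, and Eci1, with lower ones. Plin5 passed the filter only through these liver libraries, so its p-value adds no support. The median was 0.54 over the 10 genes and 0.08 over all genes. In the PDAC lung metastasis 2 of 10 were called (0.584% of all genes), both lower (0.413% of all genes were called lower): Acaa2 and Eci1. With Cpt2, 3 of 10 had an unadjusted p under 0.05, against 13.8% of all genes, and the medians were -1.28 and -0.50. The PDAC liver and lung comparisons share the 2 PDAC primaries as controls. In bulk RNA from sorted cells, fewer cells of a type and less RNA per cell cannot be told apart.

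**Figure D2:**
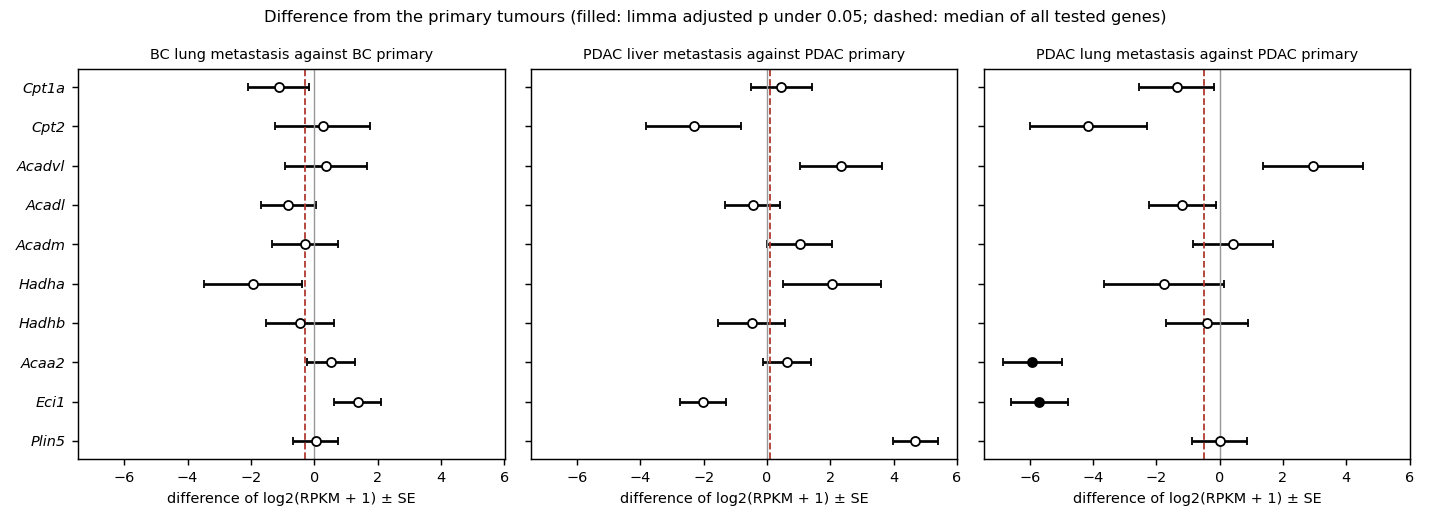
Difference of each gene between metastases and primary tumours of the same model, in log2(RPKM + 1) on the horizontal axis, with 1 gene per row; points are limma estimates, bars are ± 1 SE, filled points have an adjusted p under 0.05, and the dashed line is the median of all tested genes. The 2 filled points are Acaa2 (-5.92) and Eci1 (-5.70) in the single PDAC lung metastasis; Plin5 in the liver metastases (4.69) is open, at an adjusted p of 0.0563.

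The remaining contrasts gave no call among the 10 genes. Where Plin5 is counted below, it had passed the filter only through the PDAC liver libraries. Taking metastasis against primary tumour over both models, with the model as a covariate and the PDAC lung metastasis included, limma called 0 of 10 (0.00779% of all genes) and 0 had an unadjusted p under 0.05 (4.89% of all genes). Between PDAC and BC primary tumours 0 were called (0.0312% of all genes) and 0 had an unadjusted p under 0.05 (13.2% of all genes). The difference between the PDAC liver effect and the BC lung effect was called for 0 of 10 (0% of all genes), with Eci1 and Plin5, 2 of 10, at an unadjusted p under 0.05 (4.13% of all genes). Between PDAC liver and PDAC lung metastases 0 were called (0.0312% of all genes), with Acaa2, Eci1 and Plin5, 3 of 10, at an unadjusted p under 0.05 (10.6% of all genes).

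The carnitine shuttle was represented by Cpt1a (ENSMUSG00000024900), the outer-membrane carnitine palmitoyltransferase whose inhibition by malonyl-CoA makes it the control point of the pathway, and Cpt2 (ENSMUSG00000028607), which hands the acyl group back to CoA inside the mitochondrion. Cpt1a had 4.78 and 8.14 RPKM in the BC primary pair, 3.09 and 1.74 RPKM in the BC lung pair, 2.84 and 0.728 RPKM in the PDAC primary pair and 1.84 and 3.36 RPKM in the PDAC liver pair, and the PDAC lung library listed it at 0. Both BC primaries were above both BC lung metastases and above all 5 PDAC libraries, while PDAC primaries and liver metastases overlapped. The BC difference of -1.12 ± 0.96 (SE, n = 2 against 2) did not pass in limma (adjusted p = 0.974), nor did that between PDAC and BC primaries (-1.50 ± 0.96, adjusted p = 0.516). At no more than 8.14 RPKM in any library, Cpt1a stayed below Cpt2 in 7 of the 9 libraries.

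Cpt2 ranged more widely. The BC primary pair had 20.6 and 9.54 RPKM and the BC lung pair 14.1 and 20.6 RPKM, and these overlapped. Of the PDAC libraries, the primary pair had 4.70 and 54.1 RPKM, liver metastasis 5 had 11.8 RPKM, and liver metastasis 1 and the lung metastasis listed Cpt2 at 0. The 2 PDAC primaries thus differed by more than the BC groups did, and both libraries that listed Cpt2 at 0 carry number 1, whose primary tumour was itself low. The difference of the PDAC lung metastasis from the primaries was -4.15 ± 1.84 (n = 1 against 2; limma adjusted p = 0.355), and that of the liver metastases -2.31 ± 1.50 (adjusted p = 0.871). The carrier that moves acylcarnitines between these 2 steps, Slc25a20, was listed at 0 in PDAC primary 5 and had 12.8 RPKM in PDAC primary 1, 19.0 and 25.0 RPKM in the PDAC liver pair and 49.4 RPKM in the PDAC lung library, where both transferase genes were listed at 0. Its BC values were 20.1 and 21.3 RPKM (primary pair) and 32.4 and 56.9 RPKM (lung pair). Crat, which makes short-chain acylcarnitines, varied less, between 3.16 and 11.9 RPKM over the 9 libraries.

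The acyl-CoA dehydrogenases carry out the first reaction of each cycle and differ in the chain length they take: Acadvl (ENSMUSG00000018574) very long, Acadl (ENSMUSG00000026003) long and Acadm (ENSMUSG00000062908) medium. Acadvl stayed between 18.9 and 34.1 RPKM in all libraries but 1. Its levels were 33.6 and 20.1 RPKM in the BC primary pair, 34.1 and 33.8 RPKM in the BC lung pair, 25.0 and 18.9 RPKM in the PDAC liver pair and 33.9 RPKM in the PDAC lung library. PDAC primary 1 had 19.4 RPKM and PDAC primary 5 was listed at 0. The differences drawn from the PDAC primaries follow that 1 library: 2.33 ± 1.29 for liver (limma adjusted p = 0.854), 2.95 ± 1.58 for lung (adjusted p = 0.464) and -2.58 ± 1.29 against BC primaries (adjusted p = 0.429). Without PDAC primary 5 the liver difference was 0.16 and the lung difference 0.78. Without PDAC primary 1, which leaves the library listed at 0 as the only PDAC primary, the same differences were called, at 4.51 (limma adjusted p = 0.0151, range over 19 alternatives 0.0151 to 1), 5.12 (0.0133, range over 17 alternatives 0.0133 to 0.838) and -4.75 (0.0135, range over 19 alternatives 0.0135 to 0.986).

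Acadl had the highest RPKM of the 3 dehydrogenases in 8 of the 9 libraries, BC lung metastasis 6 being the exception. It reached 96.9 and 64.2 RPKM in the BC primary pair, 98.2 and 19.6 RPKM in the BC lung pair, 53.6 and 123 RPKM in the PDAC primary pair, 75.7 and 46.7 RPKM in the PDAC liver pair and 35.2 RPKM in the PDAC lung library. BC lung metastasis 6 was the lowest of all libraries for Acadl, and the groups overlapped in both models apart from the single lung library, which lay below the PDAC primaries and liver metastases. Acadm had 45.5 and 30.0 RPKM in the BC primary pair, 46.5 and 19.2 RPKM in the BC lung pair, 35.9 and 4.98 RPKM in the PDAC primary pair, 43.5 and 19.6 RPKM in the PDAC liver pair and 19.0 RPKM in the PDAC lung library. The lowest Acadm value was in PDAC primary 5, where Acadvl was listed at 0 and Acadl had its highest value. For Acadl, a same-strand pseudogene (Gm15793) lies within the gene and is also in the table, so reads shared with it are uncertain, and Dvl2 overlaps Acadvl on the opposite strand. The limma differences of Acadl and Acadm lay between -1.19 and 1.03 in the 3 comparisons of metastases with primaries, with adjusted p of 0.684 to 1.

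The mitochondrial trifunctional protein joins the hydration, second dehydrogenation and cleavage of long chains in 1 complex, with the alpha subunit encoded by Hadha (ENSMUSG00000025745) and the beta subunit, the thiolase, by Hadhb (ENSMUSG00000059447). The 2 genes lie head to head and share the stretch between their start sites, which is why it is shown here: on chromosome 5 in build GRCm38.p6, from RefSeq, chr5:30154981-30155252, 272 bases on the plus strand, read in the direction of Hadhb. Capitals mark GGGCGG, the GC box bound by Sp1-type factors, on this strand.
Hadha-Hadhb: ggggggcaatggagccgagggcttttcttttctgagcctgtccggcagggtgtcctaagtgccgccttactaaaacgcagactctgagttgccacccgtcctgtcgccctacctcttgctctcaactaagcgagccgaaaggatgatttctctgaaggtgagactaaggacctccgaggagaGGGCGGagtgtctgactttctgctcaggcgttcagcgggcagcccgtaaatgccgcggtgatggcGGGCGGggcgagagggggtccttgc
The stretch holds 2 GC boxes in this reading, and the windows of 250 bases before each of the start sites overlap by 228 bases.

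Despite the shared stretch, the subunit genes diverged in 3 libraries. Hadha had 12.2 and 15.1 RPKM in the BC primary pair, 12.0 and 0.0962 RPKM in the BC lung pair, 10.9 and 0.00598 RPKM in the PDAC primary pair, 24.2 and 7.33 RPKM in the PDAC liver pair and 0.0293 RPKM in the PDAC lung library. In the same order Hadhb had 7.95 and 6.23 RPKM, 6.42 and 3.67 RPKM, 4.29 and 9.35 RPKM, 3.00 and 6.01 RPKM, and 4.59 RPKM. Hadhb therefore stayed between 3.00 and 9.35 RPKM in all 9 libraries, while Hadha was near 0 in BC lung metastasis 6, PDAC primary 5 and the PDAC lung metastasis, the 3 libraries with the fewest genes. The ratio of Hadha to Hadhb was 1.22 to 8.08 in the other 6 libraries and 0.0262, 6.39e-04 and 0.00638 in those 3. From the gene lengths, Hadha rested on an estimated 39.2, 1.63 and 3.27 reads there and Hadhb on 1132, 1930 and 387. The lengths come from another annotation than the authors', and fractions of a read show that these estimates are approximate. The library kit does not mark molecules, so these reads are not counts of molecules. Whether the gap exceeds the error of sampling molecules cannot be told from them. How the few detected genes of these libraries bear on the gap was not tested.

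The limma differences of Hadha were -1.95 ± 1.55 in BC lung metastases (adjusted p = 0.974), 2.07 ± 1.55 in PDAC liver metastases (adjusted p = 0.88) and -1.75 ± 1.90 in the PDAC lung metastasis (adjusted p = 0.72), and those of Hadhb were -0.45, -0.48 and -0.40 (adjusted p = 0.922 to 1). The sizes of the BC and PDAC liver differences of Hadha depended on 1 low library on each side. Without the 2 libraries with few genes in groups of 2, an alternative chosen after the data were seen, they were -0.16 in BC and 0.28 in PDAC liver, with the signs kept. Garem2 overlaps Hadha on the opposite strand and is also in the table, and the library kit does not mark strand, so reads in the overlap cannot be assigned with certainty.

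**Figure D3:**
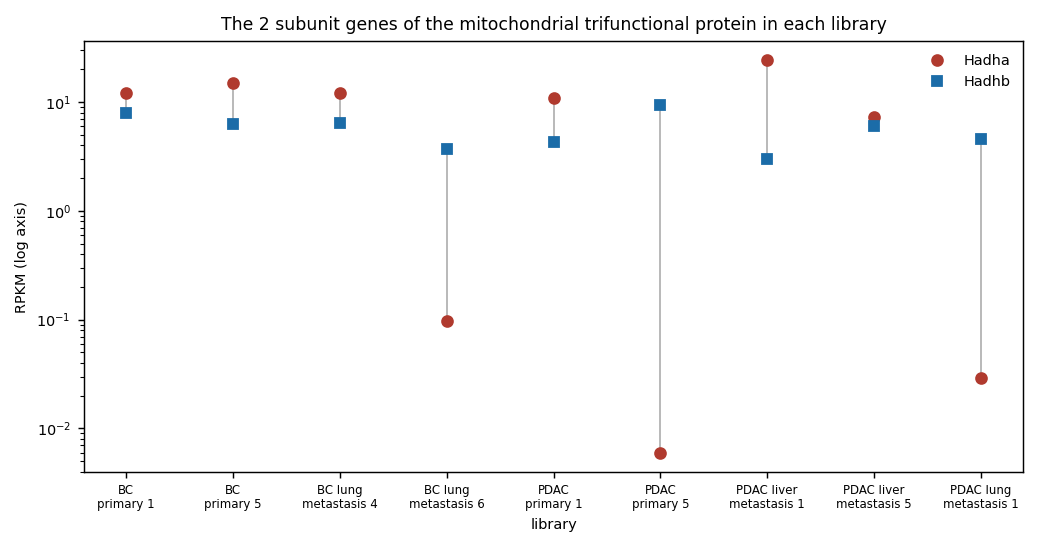
RPKM of the 2 subunit genes of the trifunctional protein in each library, on a log axis; circles are Hadha, squares are Hadhb and grey lines join the values of a library. Hadhb lies between 3.00 and 9.35 RPKM everywhere, and Hadha is below 0.1 RPKM in BC lung metastasis 6, PDAC primary 5 and the PDAC lung metastasis.

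Acaa2 (ENSMUSG00000036880), the mitochondrial thiolase that releases acetyl-CoA from medium chains, was high in 8 libraries. Its levels were 68.4 and 50.7 RPKM in the BC primary pair, 83.3 and 88.9 RPKM in the BC lung pair, 90.3 and 47.8 RPKM in the PDAC primary pair and 165 and 62.1 RPKM in the PDAC liver pair. The PDAC lung metastasis had 0.103 RPKM, an estimated 2.0 reads. BC lung metastases were both above both BC primaries, whereas PDAC primaries and liver metastases overlapped, and the PDAC lung metastasis lay far below all others. Acaa2 fell in it by 5.92 ± 0.93 on the log2 scale (SE, n = 1 against 2; limma adjusted p = 0.0348). Of 533 genes that were at 47.8 RPKM or more in each of the other 8 libraries, 2 (0.375%), Acaa2 included, were at or below 0.103 RPKM in the PDAC lung metastasis. Both cutoffs were Acaa2's own values, so it met them by construction and the share is a description, not a test. Against the liver metastases the difference was 6.54 ± 0.93 higher in liver (adjusted p = 0.0527). In BC the difference was 0.54 ± 0.76 (adjusted p = 0.989).

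Eci1 (ENSMUSG00000024132) encodes the mitochondrial enoyl-CoA isomerase that moves double bonds of unsaturated fatty acids into the position the cycle can use. Most of its groups did not overlap. PDAC liver metastases 1 and 5 were at 29.0 and 20.9 RPKM (25.0 ± 5.73, SD, n = 2), BC primaries 1 and 5 at 72.2 and 63.4 RPKM (67.8 ± 6.27), PDAC primaries 1 and 5 at 113 and 94.1 RPKM (103 ± 13.0) and BC lung metastases 4 and 6 at 108 and 288 RPKM (198 ± 127). The PDAC lung metastasis was at 1.00 RPKM, an estimated 27.3 reads. Each of these groups lay wholly apart from the next, except that the PDAC primaries and BC lung metastases overlapped. Eci1 thus had higher values in metastases than in primaries in BC and lower values in both metastatic sites of PDAC. In liver both values lay below both PDAC primaries, so the direction holds under any pairing of the libraries. The share of all genes separated in this way is not given here.

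The BC difference was 1.37 ± 0.73 (SE, n = 2 against 2; limma adjusted p = 0.974), and without BC lung metastasis 6 it was 0.67. The PDAC liver difference was -2.02 ± 0.73 (limma adjusted p = 0.599) and lay between -2.46 and -1.79 in 19 alternatives, none of which called it (adjusted p 0.195 to 1). The test of the difference between those effects gave -3.39 ± 1.04 (limma adjusted p = 0.874), so it did not pass over all genes. In the PDAC lung metastasis Eci1 fell by 5.70 ± 0.90 (n = 1 against 2; limma adjusted p = 0.0348). Of 1100 genes at 20.9 RPKM or more in each of the other 8 libraries, 46 (4.18%), Eci1 included, were at or below 1.00 RPKM there. These cutoffs were likewise Eci1's own values, so this share is a description as well.

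The calls of Acaa2 and Eci1 in the PDAC lung metastasis rest on 1 library, assumed to vary like the other groups, and on how the spread was pooled. Both were lost without any 1 of the 4 BC libraries (BC primary 1 or 5, BC lung metastasis 4 or 6; limma adjusted p = 0.101 to 0.108), which do not enter the difference itself, and with the replicate number as a block (adjusted p = 0.106). Over 17 alternatives the adjusted p ran from 0.00887 to 0.607 for Acaa2 and from 0.0102 to 0.607 for Eci1, and each was called in 9. The same library held 36331 RPKM of summed lung epithelium markers, against 1.74 to 482 in the others, and 124 RPKM of epithelial tumour cell markers, and the part of these in the 2 differences was not tested.

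Plin5 (ENSMUSG00000011305) coats lipid droplets in oxidative tissues and brings them to mitochondria; it is no enzyme of the cycle. The PDAC liver pair had 19.6 and 31.3 RPKM, an estimated 706 and 2373 reads. Elsewhere Plin5 was at 0.0114 RPKM in BC primary 1 (2.0 reads) and 0.0749 RPKM in BC lung metastasis 4 (12.0 reads) and listed at 0 in BC primary 5, BC lung metastasis 6, both PDAC primaries and the PDAC lung metastasis. The liver metastases stood apart from all other libraries, and no fold is given against primaries listed at 0. On the log2(RPKM + 1) scale the difference from the PDAC primaries was 4.69 ± 0.71 (SE, n = 2 against 2), which did not pass over all genes in limma (adjusted p = 0.0563) and was called in 2 of 17 alternatives (adjusted p 0.0144 to 1). Its size depends on the pseudocount of 1 and was 7.96 with 0.1. Plin5 passed the filter only through the 2 liver libraries, so the p-values of its liver differences add no support. The difference from the PDAC lung metastasis was the same 4.69 ± 0.87 (adjusted p = 0.0631), and that from the BC lung effect was 4.64 ± 1.01 (adjusted p = 0.813).

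Hepatocyte genes moved with Plin5. Their summed RPKM over 22 markers was 1271 and 3010 in the PDAC liver pair, 25.0 and 412 in the PDAC primary pair, 23.2 in the PDAC lung library and 4.12 to 12.8 in the BC libraries. Albumin (Alb) had 30.8 and 381 RPKM in the liver pair, at most 0.0416 RPKM in the other libraries, and listed at 0 in PDAC primary 5, whose sum came mainly from Apoa1 (245 RPKM). Of 20 tested hepatocyte markers, 19 had positive differences in the liver comparison (53.9% of all genes). Limma called 1 of them, the apolipoprotein gene Apoa2 (0.00779% of all genes). Apoa2, Alb and others of these markers reached 1 RPKM only in the 2 liver libraries and passed the filter only through them. Their signs and the call therefore add no support. The part of these markers in the Plin5 values was not tested. Other droplet coat genes were present in every library: Plin2 at 198 and 167 RPKM in the liver pair and 38.9 to 116 RPKM elsewhere, and Plin3 at 75.6 and 67.7 RPKM there and 26.0 to 130 RPKM elsewhere. Their liver differences were 0.81 ± 0.65 and 0.29 ± 0.80 (limma adjusted p = 0.891 and 0.996).

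**Figure D4:**
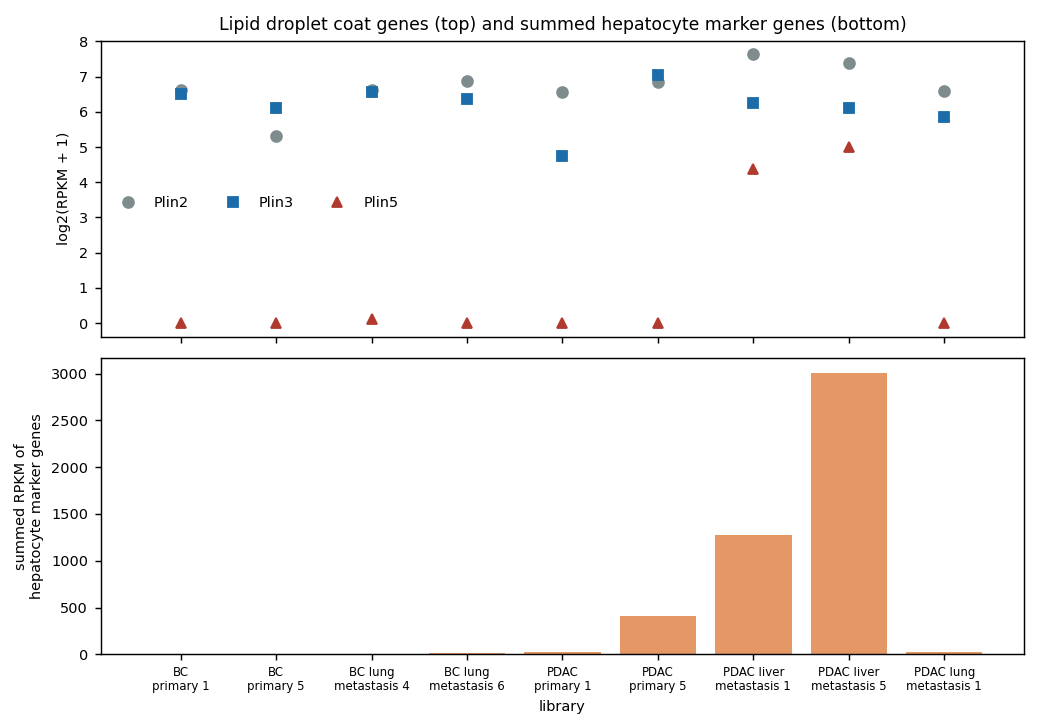
Top, log2(RPKM + 1) of the droplet coat genes Plin2, Plin3 and Plin5 in each library; bottom, the summed RPKM of 22 hepatocyte marker genes in the same libraries. Plin5 is above 4 on the log2 scale in the 2 PDAC liver metastases and near 0 in the other 7, and the hepatocyte sum is highest in the same libraries (1271 and 3010 RPKM), with 412 RPKM in PDAC primary 5.

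The upstream sequences of Plin5 and Eci1 are shown because these 2 genes had an unadjusted p under 0.05 in the PDAC liver comparison, with differences of opposite sign. They are the 250 bases before a RefSeq start site in build GRCm38.p6, chr17:56117549-56117798 on the minus strand for Plin5 (1 of its 2 start sites) and chr17:24426433-24426682 on the plus strand for Eci1. Capitals mark GGGCGG (GC box), AGGTCA (the nuclear receptor hexamer) and CCAAT, which is written ATTGG where it lies on the other strand.
Plin5: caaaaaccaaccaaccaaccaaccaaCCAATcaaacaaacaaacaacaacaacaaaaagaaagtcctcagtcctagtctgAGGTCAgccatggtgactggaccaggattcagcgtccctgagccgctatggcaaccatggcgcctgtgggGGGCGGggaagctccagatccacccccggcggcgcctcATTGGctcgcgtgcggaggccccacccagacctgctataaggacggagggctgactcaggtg
Eci1: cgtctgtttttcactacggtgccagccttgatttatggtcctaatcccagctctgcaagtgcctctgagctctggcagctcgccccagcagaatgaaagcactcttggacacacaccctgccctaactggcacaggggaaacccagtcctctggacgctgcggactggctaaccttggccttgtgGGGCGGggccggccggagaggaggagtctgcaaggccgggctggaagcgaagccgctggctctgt
The Plin5 stretch held a CCAAT on each strand, 1 AGGTCA and 1 GC box, and that of Eci1 held 1 GC box. The window before the other Plin5 start site, not printed, held 2 GC boxes and neither AGGTCA nor CCAAT. Such windows were searched on both strands for 9 of the 10 genes, Acaa2 not being among them. AGGTCA was in the windows of 4 of 9 genes (Cpt1a, Acadvl, Acadm and, at 1 of its 2 start sites, Plin5; 14.0% of 32851 windows), GGGCGG in 7 of 9 (32.7%) and CCAAT in 2 of 9 (Cpt1a and the same Plin5 window; 33.8%). AGGTCANAGGTCA, 2 such hexamers in a row with 1 base between them, which is the arrangement PPAR receptors prefer, was in 0 of 9 and in 11 (0.0335%) of all windows. These matches describe letters in a window and show no binding.

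The pathway was also read by wider lists, which hold genes of the set above as well and were chosen with earlier results of these data known. In BC lung and PDAC liver metastases limma called 0 genes of the carnitine shuttle, uptake and activation, dehydrogenase, hydratase and isomerase, thiolase and peroxisomal lists. It also called 0 of the PPAR regulator, lipid droplet, PPAR target, fatty acid synthesis and tricarboxylic acid cycle lists. Over all genes it called 0% in BC lung and 0.00779% in PDAC liver metastases, so 0 in a list says little about that list. In the PDAC lung metastasis limma called 1 gene higher, the fatty acid transporter gene Cd36, and 2 lower, Eci1 and Acaa2. Over all genes it called 0.584%, with 0.413% called lower. Cd36 was at 0.0270 and 0.00813 RPKM in the primary pair against 111 RPKM (limma adjusted p = 0.0348). Elsewhere Cd36 reached 1 RPKM only in PDAC liver metastasis 5 (4.49 RPKM), so it passed the filter only with the lung library. Its p-value therefore adds no support. Like those of Eci1 and Acaa2, its call rests on 1 library and was lost with the replicate number as a block. The PDAC lung library also held 617 RPKM of summed endothelium markers (at most 48.3 RPKM elsewhere). Summed macrophage markers were at 11050 RPKM there and at 12562 and 9371 RPKM in the PDAC liver pair. The part of these in the Cd36 difference was not tested. All 9 tested hydratase, isomerase and reductase genes had negative mean differences from the PDAC primaries in the lung library (median -1.72, all genes -0.50). So did the 3 thiolase genes (median -5.18). Eci1 and Hadha are among those 9 and Acaa2 and Hadhb among these 3, so both counts partly repeat values given above. Of all tested genes, 33.7% had positive differences. Single primaries could lie lower: Hadhb was at 4.59 RPKM in the lung library and 4.29 RPKM in PDAC primary 1.

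Genes that act beside Eci1 and Acaa2 had like values in the PDAC lung metastasis without passing. Eci2, another enoyl-CoA isomerase, had 22.7 and 51.3 RPKM in the PDAC primary pair and 0.150 RPKM in the lung library (-4.94 ± 1.12, limma adjusted p = 0.0773). Echs1, the short-chain hydratase, was at 25.0 and 71.1 RPKM against 0.104 RPKM (-5.29 ± 1.23, adjusted p = 0.086), and Acat1, the acetoacetyl-CoA thiolase, at 32.5 and 38.2 RPKM against listed at 0. Others stayed high in the same library: the electron transfer flavoprotein genes Etfa and Etfb, which take electrons from the acyl-CoA dehydrogenases, were at 175 and 86.3 RPKM, within 44.4 to 194 and 66.0 to 259 RPKM in the other 8 libraries. Hsd17b10 and Ech1 were at 37.5 and 42.9 RPKM, below their lowest values elsewhere (60.8 and 50.3 RPKM).

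Unlike Eci1, its paralogue Eci2 did not separate the PDAC liver metastases (25.2 and 15.7 RPKM) from BC primaries (30.2 and 17.3 RPKM), and its liver difference was -0.75 ± 0.91 (limma adjusted p = 0.939). Acat1, Etfa, Etfb, Hsd17b10 and Ech1 were named by a rule on mean level, and Eci2, Echs1 and the regulators were named after their values had been seen. Of the PPAR regulators, Ppara was at 0.00832 RPKM in PDAC primary 5 and listed at 0 in the other 8 libraries, and the coactivator gene Ppargc1a was at most 0.0331 RPKM. Pparg was at 61.0 RPKM in PDAC primary 5 and 11.3 and 2.04 RPKM in the PDAC liver pair, and at most 0.0788 RPKM in the others.

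Genes of neighbouring lipid and fuel steps, named by their mean level, varied in different directions. G0s2, an inhibitor of the droplet lipase, had 238 and 0.190 RPKM in the PDAC primary pair, 1696 and 4218 RPKM in the PDAC liver pair and 2663 RPKM in the PDAC lung library. Its liver difference of 7.31 ± 1.91 did not pass (limma adjusted p = 0.34), and BC values were 3.74 and 0.326 RPKM in the primary pair against 76.2 and 22.2 RPKM in the lung pair. The summed RPKM of 12 neutrophil markers was 1331 and 368 in the PDAC primary pair, 8822 and 219679 in the PDAC liver pair and 21261 in the PDAC lung library. In BC it was 70.2 and 97.3 in the primary pair and 2566 and 1563 in the lung pair. The part of these markers in the G0s2 values was not tested. Fabp1, a fatty acid binding protein of liver and gut, was listed at 0 in 6 libraries and had 219 RPKM in PDAC primary 5 and 27.9 and 6.51 RPKM in the PDAC liver pair. Acly, which makes acetyl-CoA for synthesis in the cytosol, had 34.6 and 34.8 RPKM in the BC primary pair and 8.57 and 0.904 RPKM in the BC lung pair (-3.06 ± 1.24, limma adjusted p = 0.974). Elovl1, an elongase, had 36.3 and 30.5 RPKM in the PDAC primary pair and 0.0287 RPKM in the PDAC lung library (-5.06 ± 1.02, limma adjusted p = 0.06). The citric acid cycle genes Mdh2 and Sdhd were at or above 215 and 140 RPKM in the other 8 libraries and at 278 and 180 RPKM in that one. Other genes of the cycle, named after their values were seen, were low in the PDAC lung library. Dld was at 0.0349, Idh3b at 0.0229 and Sucla2 at 0.0196 RPKM, and Suclg2 was listed at 0. Idh3b and Sucla2 were also low in PDAC primary 5 (0.0560 and 0.448 RPKM). Of 17 cycle genes, 13 had negative and 4 positive differences in lung (median -0.76, all genes -0.50). Values of Acsl5 (11.0 to 60.6 RPKM), Ucp2 (39.0 to 443 RPKM), Txnip (6.12 to 94.2 RPKM), Ncor1 (5.81 to 43.2 RPKM), Hilpda (0.0970 to 298 RPKM), Phyh (0.0169 to 80.8 RPKM) and Rxrb (0.155 to 33.2 RPKM) differed between metastases and primaries in no comparison that limma called.

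The 10 genes did not follow a single pattern over the libraries. Over the 45 pairs, Pearson's r of log2(RPKM + 1) across the 9 libraries ran from -0.55 to 0.82 with a median of 0.20, and 31 were positive. The closest pairs were Acadvl with Acadm (0.82), Acaa2 with Eci1 (0.81) and Acadm with Hadha (0.79), and the most opposed was Acadvl with Hadhb (-0.55). The points share 9 libraries of unequal depth, Acadvl and Acadm share a low PDAC primary 5, and Acaa2 and Eci1 share a low PDAC lung metastasis, so these values describe the libraries. Among the 12822 other tested genes, those most like the mean of the 10 over the 9 libraries were Sars (r = 0.98), Uap1l1 (0.97), Ctbp1 (0.97), Cpsf6 (0.96) and Arpc1a (0.96).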

How the data were processed

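RNA was sequenced in 9 libraries of sorted cells; per the labels' protocols, cDNA was made with SMART-seq v4 and Nextera XT, which do not mark strand or molecules. The reads were handled with genome build mm9, per the submitters' processing notes; for aligner, counter and annotation, not given in the sources used here. What the authors deposited was read as RPKM, although the table is named CPM: low values (under 20 reads) times exonic length (GENCODE M21, found for 93.0% of genes) were whole multiples of 1 step, within 0.02, for 62.8 to 74.4% of values per library, against 3.64 to 5.04% without length. Estimated reads on genes were 21300000 to 128000000 per library. In every library but BC primary 5 this estimate exceeded the read total implied by the RPKM scale. It was 21300000 against 12800000 in the PDAC lung library and 65200000 against 36400000 in PDAC liver metastasis 5. Read estimates from these lengths are therefore approximate and can be too high. A count-based test was not run, since whole reads are recovered only with lengths of another annotation.

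Tests used limma 3.58.1 (R 4.3.3, statmod 1.5.0) for genes reaching 1 RPKM in 2 or more libraries, after the transform log2(RPKM + 1), with trend and robust moderation, 1 mean per group (4 residual degrees of freedom), two-sided, with Benjamini-Hochberg adjustment over 12832 genes; metastasis against primary over both models took the model as covariate (6 residual degrees of freedom). On this scale changes of low genes are understated. The labels do not say that BC libraries of a group came from separate mice, so p-values measure the spread between libraries, which may be technical. PDAC libraries of 1 number share age and genotype and are described as matched, so the numbers were taken to pair by mouse, although deviations of PDAC primary 1 and liver metastasis 1 from their group means correlated at -0.165 over 12832 genes. The fit was tested on simulated data.

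The 10 genes, the gene lists and the alternatives were chosen with earlier results of these data known. Named beside the 10 genes were, per pathway list, called genes and the 2 with the highest mean, the 5 genes most like the mean of the 10, and per cell type list the gene with the highest mean; other markers (Alb, Apoa2, Cdh1, Epcam, Krt8, Krt19) and Plin2 and Plin3 were named after their values were seen. Some genes of these lists are not reported here. Upstream sequences come from RefSeq (GRCm38.p6), a later build than the authors', and the positions printed are those of these sequences in that build.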

Additional observations from a re-analysis of the deposited data

How the results depend on the processing

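The single PDAC lung library, groups of 2 and 3 libraries with few genes set the limits. Of the 70 differences (10 genes in 7 contrasts), 29 turned their sign in at least 1 alternative and 10 were called in at least 1. In BC lung metastases, over both models and for the PDAC liver effect minus the BC lung effect, no alternative run called any of the 10 genes. In the PDAC lung comparison 0 of the 10 were called with a replicate block, with neither trend nor robust moderation, with only the groups compared, and without the 2 libraries with few genes in groups of 2 (PDAC primary 5 and BC lung metastasis 6; chosen after the data were seen). Leaving out 1 library at a time gave 0 to 4 called genes there, 0 to 2 in PDAC liver metastases, 0 to 1 between primaries and 0 to 2 between PDAC liver and lung. The 4, the liver 2 and the 1 came without PDAC primary 1, which added Acadvl in each, Plin5 in liver and Cpt2 in lung, and without it limma called 1547 genes in all in lung and 1032 in liver, against 75 and 1. The 2 between liver and lung came without PDAC primary 1 or 5. That contrast also had 2 called with a pseudocount of 0.1 or without a filter and 1 with quantile scaling or only the groups compared.

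The block, for the pairing by mouse, called 0 genes in all in lung and changed no other call of the 10. Crossing the pairing, chosen after the data were seen, called 1 of the 10 in liver (46 genes in all), 2 in lung (124) and 2 between liver and lung.

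The median of the 10 genes in PDAC liver metastases ranged from -0.077 to 1.05 over single libraries left out, and was 0.075 without the 3, or the 2, libraries with few genes. In lung it ranged from -1.41 to -0.84, with -2.13 at a pseudocount of 0.1. Over both models it was 0.040 without the 3 libraries. Between primaries it was -0.56 when rescaled without haemoglobin. For the PDAC liver effect minus the BC lung effect it ranged from 0.23 to 1.69, with -0.19 without the 3, or the 2, libraries. Between liver and lung it ranged from 1.16 to 2.13, with 3.97 at a pseudocount of 0.1 and 1.16 with quantile scaling. The causes were not tested. Rescaling moved the median of all genes from 0.08 to -0.13 in liver, by haemoglobin or quantiles, and quantile scaling moved it from -0.50 to -0.05 in lung. Contrasts with PDAC lung could not be computed without it, and the count-based alternative was not run.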
